A study of Mus musculus with 6 samples.

Results

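Leukocyte lineage miRNAs are small RNAs made mainly by white blood cells, and 7 of them were followed here in a mouse model of choroidal neovascularization (CNV), the growth of new vessels from the choroid under the retina. The members were listed by name: both arms of the pan-leukocyte miR-142a (mmu-miR-142a-3p and mmu-miR-142a-5p), both arms of the myeloid miR-223 (mmu-miR-223-3p and mmu-miR-223-5p), the macrophage miRNA mmu-miR-511-3p, and the lymphocyte miRNAs mmu-miR-150-5p and mmu-miR-342-3p. The prefix mmu, for mouse, is left out below. All 7 were found among the 1836 miRNAs of the 2334 small RNAs counted, and they come from 5 precursors. The tissue was the RPE-choroid-sclera complex (RPE is the retinal pigment epithelium) of male mice aged 7 to 8 weeks, whose strain the sources used here do not give. In the CNV group each eye received 25 burns from a 532 nm laser (100 mW, 0.1 s, 50 µm) and was taken 7 days later. The control eyes came from mice of the same age that had no laser. Each group has 3 libraries, and each library is a pool of 4 eyes, so values of single eyes or mice were not measured. Nothing says that the pools of a group came from separate mice, and p-values then measure only the spread between pools.

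A miRNA is cut from a hairpin precursor as a duplex of a 5p and a 3p arm, and the arm that is loaded into an Argonaute protein guides it to messenger RNAs that pair with its seed, bases 2 to 8. The miR-142 gene is active in nearly all blood-forming lineages. The miR-223 gene is driven by myeloid transcription factors and is strongest in neutrophils and monocytes, where it restrains granulocyte activation. The miR-511 gene lies within Mrc1, which encodes the mannose receptor of tissue macrophages, while miR-150 accumulates in mature B and T cells and targets the transcription factor Myb. The choroid is a dense vascular layer with resident macrophages, and macrophages and other leukocytes are known to enter laser lesions.

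The mature sequences of 6 members matched a RefSeq entry of build GRCm38.p6 and are shown to tell the members and their arms apart. Seed bases are in capitals.
miR-142a-3p: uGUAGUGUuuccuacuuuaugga
miR-142a-5p: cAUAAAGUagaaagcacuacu
miR-223-3p: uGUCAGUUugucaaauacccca
miR-223-5p: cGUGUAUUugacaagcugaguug
miR-342-3p: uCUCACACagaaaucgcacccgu
miR-511-3p: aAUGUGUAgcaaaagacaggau
The 6 seeds all differ, and no other mature mouse miRNA of the RefSeq table has any of them. The closest other mature sequence to a member is miR-3964, which is 4 base changes from miR-142a-5p and had 3 to 14 reads per library against 830 to 3145 for miR-142a-5p. The other 5 members shown are at least 7 changes from any other sequence.

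The hairpins of the 2 precursors with both arms among the members are shown with those arms in capitals, since their arms are compared below.
Mir142: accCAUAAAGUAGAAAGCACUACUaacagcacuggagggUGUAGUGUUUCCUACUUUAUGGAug
Mir223: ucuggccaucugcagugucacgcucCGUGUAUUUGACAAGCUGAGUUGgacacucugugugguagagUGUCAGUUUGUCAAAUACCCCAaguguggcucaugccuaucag
The Mir142 hairpin lies at chr11:87756864-87756927 on the plus strand (GRCm38), in an intron of the noncoding gene Mir142hg. On the minus strand of the same place the annotation has Mir142b, whose product miR-142b had 0 to 2 reads per library. The Mir223 hairpin lies at chrX:96242817-96242926 on the plus strand, within an exon of the noncoding gene F630028O10Rik. Mir342 is at chr12:108658620-108658718 in an intron of Evl, and Mir511 at chr2:14261003-14261081 in an intron of Mrc1, both on the plus strand and in the direction of the host gene.

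The libraries held 5057142 to 5820315 counts, apart from control replicate 2 with 12839386. Together the members took 0.106%, 0.0932% and 0.0769% of miRNA reads in control replicates 1 to 3 and 0.127%, 0.128% and 0.0994% in CNV replicates 1 to 3. Levels below are CPM (counts per 1000000 counts of the library), with each library total scaled by its TMM (trimmed mean of M-values) factor. Group values are mean ± SD (n = 3 pools). In control tissue the order of levels was miR-342-3p (258 ± 37.1 CPM), miR-150-5p (213 ± 26.4), miR-142a-5p (209.7 ± 35.0), miR-223-3p (77.9 ± 2.04), miR-142a-3p (40.4 ± 7.02), miR-511-3p (15.5 ± 2.13) and miR-223-5p (8.83 ± 1.31). The first 3 of these overlapped within their SD, and each later neighbour in the order lay apart from the one before it. The ranks ran from 139 for miR-342-3p to 387 for miR-223-5p among all listed miRNAs.

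At 7 days after laser, 5 of the 7 members had every CNV pool above every control pool and 1, miR-150-5p, had every CNV pool below. Among the 997 small RNAs with enough reads to be tested, all members included, the groups lay apart in this way for 11.4% upward and 8.93% downward. Over the 541 miRNAs among them the shares were 12.8% and 11.3%. The 5 higher members include both arms of miR-142a and of miR-223, so they do not come from 5 separate precursors. No member passed the quasi-likelihood test of edgeR at 0.05 after Benjamini-Hochberg adjustment over all 997, where 0.301% of small RNAs passed. At an unadjusted p under 0.05 there were 4 members higher and 1 lower, against 10.8% and 6.92% of all tested. DESeq2 called 3 members higher (both arms of miR-142a, and miR-223-3p) with 3.81% of small RNAs called, and limma-voom called 0 members with 0.301% called. The median log2 fold change was 0.66 over the members and 0.05 over all tested. Since these miRNAs were listed with earlier results of the same data known, their counts describe them and are not independent evidence. In bulk tissue, fewer cells of a type and less RNA per cell cannot be told apart.

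**Figure D1:**
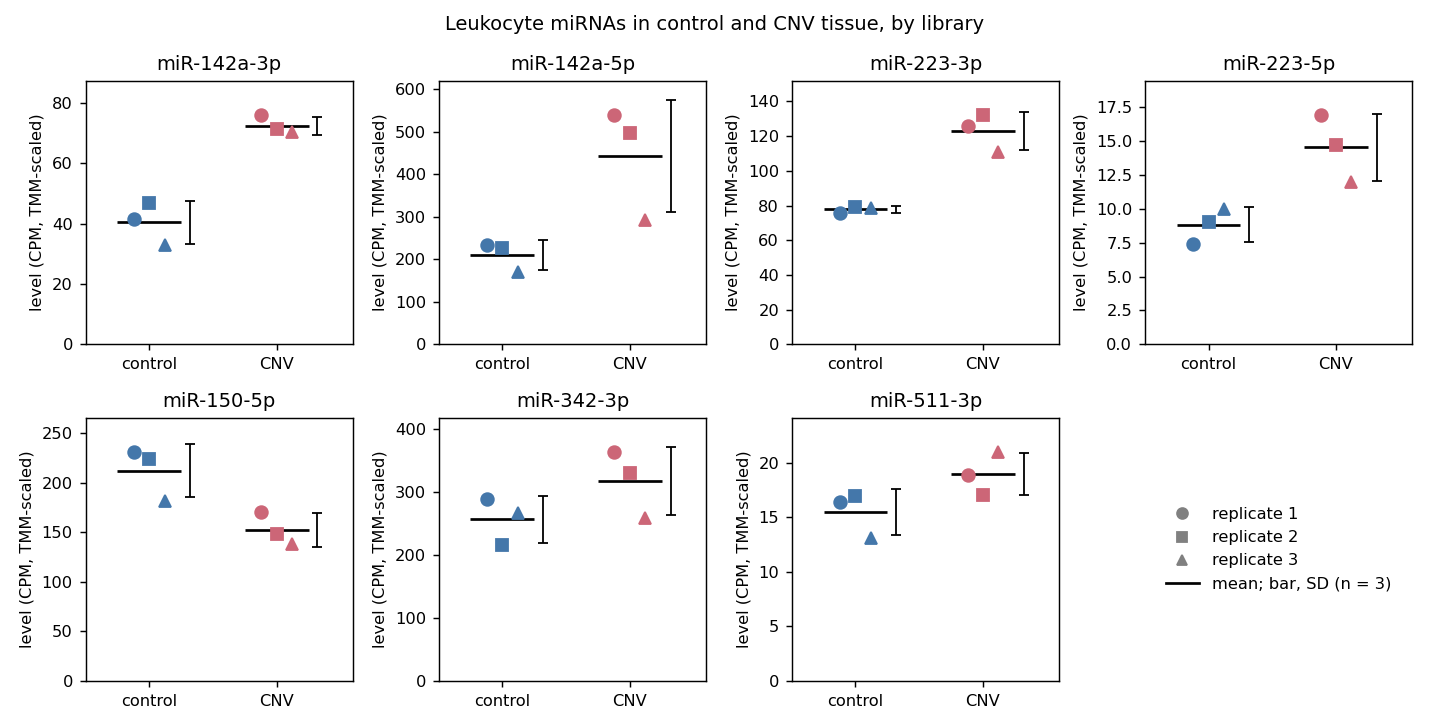
Level of each leukocyte miRNA (CPM, TMM-scaled, linear axes from 0) in the 3 control and 3 CNV libraries, with marker shape for the replicate, a line for the mean and a bar for the SD. All CNV points of miR-142a-3p, miR-142a-5p, miR-223-3p, miR-223-5p and miR-511-3p lie above all control points, all those of miR-150-5p lie below, and those of miR-342-3p overlap.

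The pan-leukocyte miR-142a was higher in CNV in both arms. The level of miR-142a-3p was 41.4, 46.8 and 32.9 CPM in control replicates 1 to 3 and 75.9, 71.3 and 70.3 CPM in CNV replicates 1 to 3. The CNV pools had a coefficient of variation of 4.11%, and the lowest of them was well above the highest control pool. The difference was 1.79-fold (log2 0.84, SE 0.19, 95% interval 0.42 to 1.26) with an adjusted p of 0.127 in edgeR and 0.00946 in DESeq2. For the more abundant arm miR-142a-5p the control pools were at 233, 226 and 169 CPM and the CNV pools at 538, 496 and 292 CPM. Here the CNV pools spread widely, with replicate 3 closer to the control pools than to the other CNV pools. The difference was 2.11-fold (log2 1.08, SE 0.25, interval 0.51 to 1.64), with an adjusted p of 0.127 in edgeR and 0.0137 in DESeq2. In edgeR without CNV replicate 3 the adjusted p was 0.0373, where 2.33% of small RNAs passed. With any other library left out, the edgeR adjusted p was 0.126 to 0.507.

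The myeloid miR-223 was also higher in both arms. The main arm miR-223-3p was at 75.6, 79.4 and 78.6 CPM in control and at 126, 132 and 111 CPM in CNV. The control pools differed little, with a coefficient of variation of 2.62%, which is below the counting error of 5.10% in the library with fewest reads of it. The difference was 1.58-fold (log2 0.66, SE 0.15, interval 0.31 to 1.00), with an adjusted p of 0.127 in edgeR and 0.0116 in DESeq2. The rarer arm miR-223-5p, which rested on 43 to 126 reads per library, was at 7.42, 9.06 and 10 CPM in control and 16.9, 14.7 and 12.0 CPM in CNV. Its difference of 1.65-fold (log2 0.72, SE 0.23, interval 0.19 to 1.25) had an adjusted p of 0.189 in edgeR. The groups did not overlap for either arm.

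The macrophage miRNA miR-511-3p showed a smaller difference. It was at 16.4, 17.0 and 13.1 CPM in control and 18.9, 17.1 and 21.0 CPM in CNV, on 64 to 237 reads per library. The lowest CNV pool barely exceeded the highest control pool, and the groups overlapped when total counts alone set the scale. The fold was 1.22 (log2 0.29, SE 0.21, interval -0.18 to 0.76, edgeR adjusted p 0.550), so the data allow both no difference and one of 1.69-fold. The other arm of the hairpin, miR-511-5p, had 10 to 42 reads per library and a log2 fold change of 0.38 (interval -0.36 to 1.12).

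The 2 lymphocyte miRNAs differed from each other in direction, though neither passed the test. The level of miR-150-5p was 231, 224 and 182 CPM in control and 171, 148 and 138 CPM in CNV. Every CNV pool was below every control pool, at 0.717-fold of the control level on average (log2 -0.48, SE 0.17, interval -0.86 to -0.10, edgeR adjusted p 0.214, DESeq2 adjusted p 0.0864). By contrast miR-342-3p, which is also made outside the lymphoid lineage, was at 289, 216 and 267 CPM in control and 364, 331 and 259 CPM in CNV. Its groups overlapped, since CNV replicate 3 lay below control replicates 1 and 3 (log2 0.31, SE 0.19, interval -0.12 to 0.73, edgeR adjusted p 0.468). The partner arm miR-342-5p had 14 to 90 reads per library and a log2 fold change of -0.33 (interval -1.13 to 0.47). The partner miR-150-3p had 1 to 11 reads and was not tested.

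**Figure D2:**
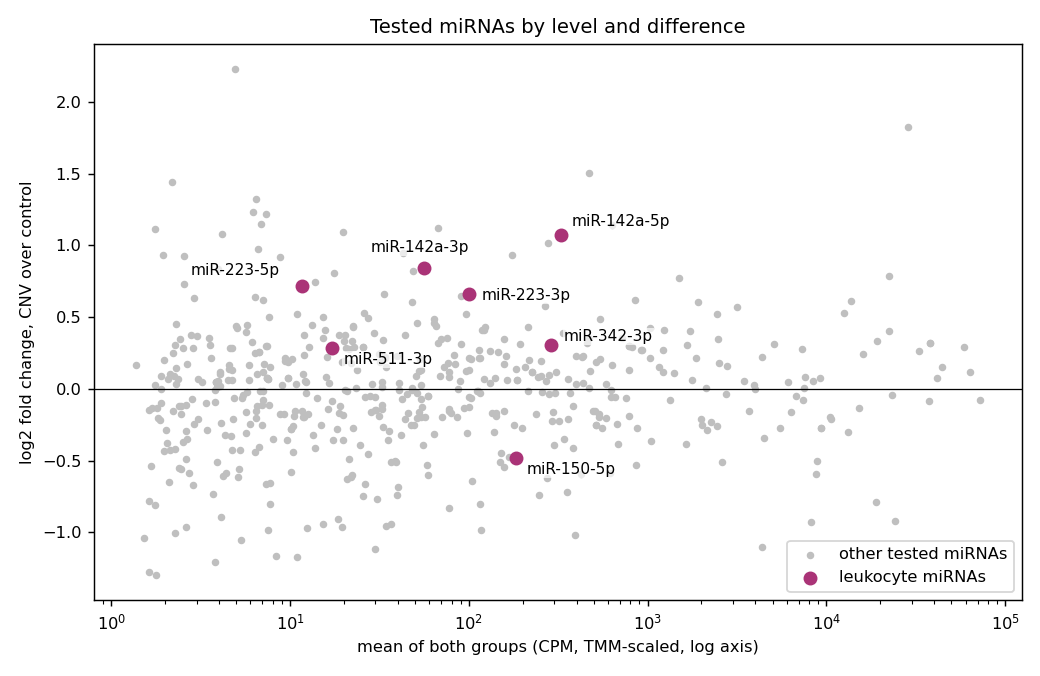
Each of the 541 tested miRNAs by its mean level in both groups (CPM, log axis) and its log2 fold change, CNV over control, with the leukocyte miRNAs in purple. The members span levels from about that of miR-223-5p to that of miR-142a-5p, and miR-150-5p is the only member below 0.

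When libraries were scaled by total counts alone, the median log2 fold change of all small RNAs was -0.11 in place of 0.05. The direction of all 7 members was the same under that scaling. The log2 fold changes were then 0.68 for miR-142a-3p, 0.90 for miR-142a-5p, 0.51 for miR-223-3p, 0.57 for miR-223-5p, -0.64 for miR-150-5p, 0.15 for miR-342-3p and 0.14 for miR-511-3p. The groups lay apart for 4 members upward and 1 downward, against 7.32% and 12.8% of all tested small RNAs.

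Ratios of read counts between members within a library do not depend on scaling, and 6 were compared by exact permutation, two-sided. With 3 pools a group such a test cannot give a p under 0.1. The ratio of miR-142a-3p to miR-150-5p was 0.179, 0.209 and 0.180 in control and 0.443, 0.482 and 0.508 in CNV, a 2.52-fold difference. The groups lay far apart relative to the spread within each (exact permutation p = 0.1, adjusted over 6 ratios 0.2). The myeloid to lymphocyte ratio, miR-223-3p to miR-150-5p, was 0.327, 0.354 and 0.431 in control and 0.734, 0.894 and 0.805 in CNV, a 2.19-fold difference (exact permutation p = 0.1, adjusted 0.2). The lymphocyte pair also separated, with miR-342-3p to miR-150-5p at 1.25, 0.965 and 1.47 in control and 2.13, 2.24 and 1.87 in CNV, a 1.71-fold difference (exact permutation p = 0.1, adjusted 0.2). These 3 ratios share the denominator miR-150-5p, and each was higher in 3 of 3 CNV pools than in any control pool. With miR-142a-3p or miR-223-3p as numerator this follows from levels that already lay apart in opposite directions. Those ratios give the size of the difference and are not further evidence of it.

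The other ratios overlapped between groups. The macrophage to myeloid ratio, miR-511-3p to miR-223-3p, was 0.217, 0.214 and 0.166 in control and 0.150, 0.130 and 0.188 in CNV (0.780-fold, exact permutation p = 0.2, adjusted 0.3). The arms of miR-223 were at 10.2, 8.77 and 7.86 reads of 3p per read of 5p in control and 7.43, 8.96 and 9.26 in CNV (exact permutation p = 0.7, adjusted 0.7). The arms of miR-142a were at 5.64, 4.83 and 5.16 reads of 5p per read of 3p in control and 7.09, 6.97 and 4.15 in CNV (exact permutation p = 0.5, adjusted 0.6). In CNV replicate 3 this arm ratio was the lowest of all 6 libraries, while in the other CNV pools it was above all controls. Adapter ligation differs between sequences, so the size of an arm ratio is not the ratio of molecules.

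Within the member reads the makeup lay apart between groups. The shares restate the same 7 counts and are not further evidence. The lymphocyte members miR-150-5p and miR-342-3p made up 58.1%, 53.8% and 59.7% of the reads of the 7 members in control and 40.8%, 39.6% and 44.0% in CNV. The arms of miR-142a made up 30.7%, 33.3% and 26.8% in control and 46.8%, 46.9% and 40.1% in CNV. A larger share of 1 member lowers the shares of the others. The level of miR-342-3p itself was not lower in CNV (258 ± 37.1 CPM in control, 318 ± 53.8 in CNV, overlapping).

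**Figure D3:**
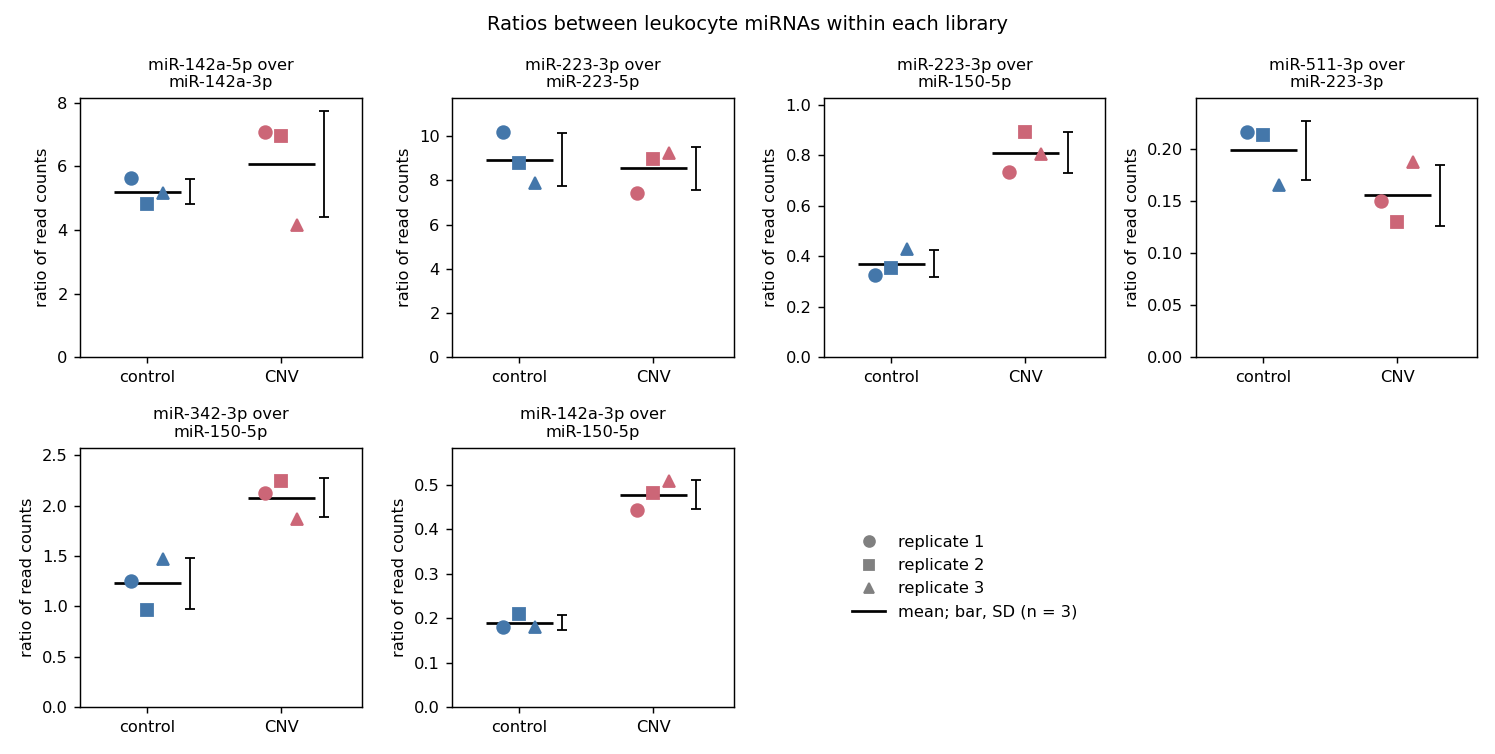
Ratios of read counts between pairs of leukocyte miRNAs in each library (linear axes from 0), with the mean and SD of each group. The 3 ratios over miR-150-5p are higher in every CNV library than in any control library, whereas the arm ratios and miR-511-3p over miR-223-3p overlap.

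A list of 12 further miRNAs known from immune cells and inflammation held 10 with enough reads to be tested. Of these 1 passed edgeR's test upward and 0 downward, 7 had a positive log2 fold change, and the median was 0.44 against 0.05 over all tested. The groups lay apart for 5 of them upward and 1 downward, against 11.4% and 8.93% of all tested. The miRNA that passed was miR-21a-5p, induced in many inflamed tissues (log2 1.82, edgeR adjusted p 0.0183). That call ended when replicate 2 or 3 of control or replicate 1 or 2 of CNV was left out (edgeR adjusted p 0.236, 0.171, 0.0866 and 0.129). The related miR-146b-5p and miR-146a-5p, which damp Toll-like receptor signalling, had log2 fold changes of 1.14 and 0.57 (edgeR adjusted p 0.0640 and 0.257). The rarer arm miR-146b-3p, on 7 to 24 reads per library, was at 0.93 (edgeR adjusted p 0.232), and miR-132-3p was at 0.04 (edgeR adjusted p 0.930). The macrophage miRNA miR-147-3p, induced through Toll-like receptors, was at 1.38, 1.22 and 0.817 CPM in control and 4.09, 2.79 and 2.75 CPM in CNV on 4 to 21 reads (log2 1.44, edgeR adjusted p 0.127). The activation miRNA miR-155-5p, made by stimulated macrophages and lymphocytes, was at 74.9, 85.3 and 81.3 CPM in control and 104, 108 and 87.9 CPM in CNV. Its pools did not overlap with TMM scaling, but they did when total counts alone set the scale. Its log2 fold change was 0.31 with an interval of -0.05 to 0.67 (edgeR adjusted p 0.372). The lymphocyte maturation miRNAs miR-181a-5p, miR-181b-5p and miR-181d-5p, which neurons also make, were at log2 fold changes of -0.51, -0.51 and -0.21.

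**Figure D4:**
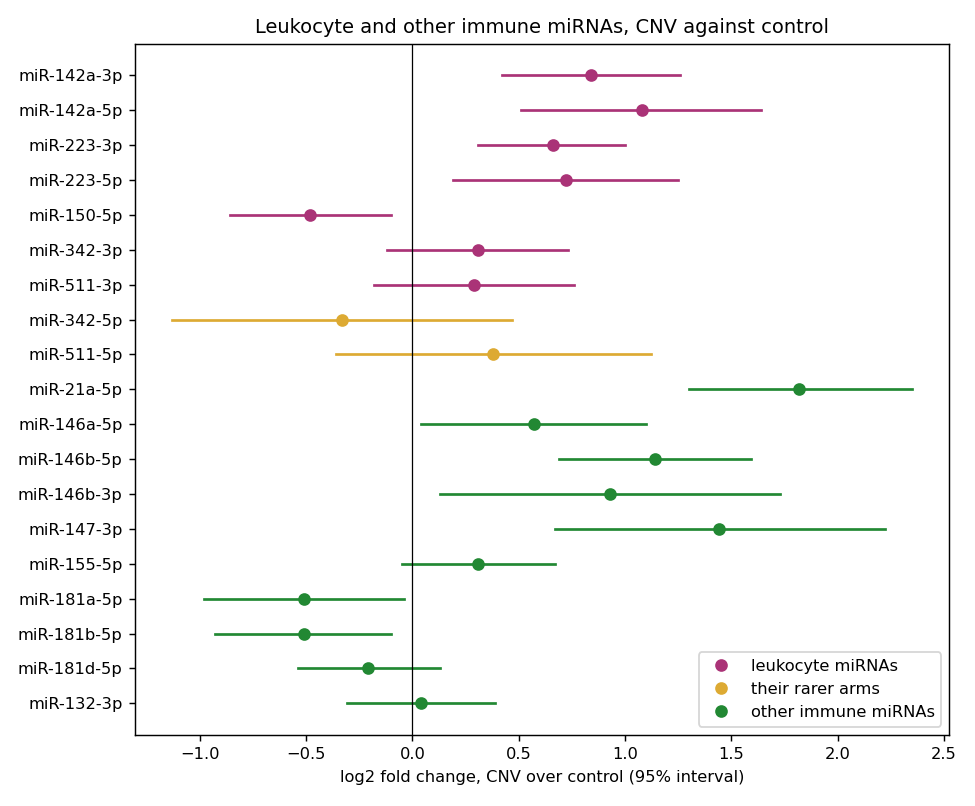
Log2 fold change, CNV over control, with its unadjusted 95% interval for the 7 leukocyte miRNAs, the 2 rarer arms tested and the 10 other immune miRNAs tested. Among the leukocyte miRNAs and their rarer arms, the intervals of miR-342-3p, miR-511-3p and both rarer arms include 0, and that of miR-150-5p lies below it. Among the other immune miRNAs, those of miR-155-5p, miR-181d-5p and miR-132-3p include 0, and those of miR-181a-5p and miR-181b-5p lie below it.

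Blood in the tissue would carry red cells along with leukocytes, and the sources used here do not say whether the vessels were flushed. The erythrocyte miRNA miR-451a was at 1461, 1259 and 599 CPM in control replicates 1 to 3 and 2935, 2302 and 449 CPM in CNV replicates 1 to 3. All 5 red cell miRNAs were detected and tested, and 0 passed edgeR's test. With the identical counts of miR-486a-5p and miR-486b-5p entered once, their median log2 fold change was 0.38 over 4 distinct count profiles and their summed level ran from 1337 to 2173 CPM in control and from 978 to 4289 CPM in CNV. CNV replicate 3 had the lowest summed red cell level of all 6 libraries. The same library was the lowest of the CNV group for every member except miR-511-3p, for which it was the highest. For miR-142a-3p the margin was small, at 70.3 against 71.3 CPM. Of the CNV pools it was also nearest to control in summed photoreceptor (49473 CPM), neuron (13193) and fibroblast and mural (69086) miRNAs. In summed RPE miRNAs (4573 CPM) it was the farthest from control. The part of blood content in the levels of the members was not tested.

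Among the miRNAs of other cell types in the sample, the summed levels of the neuron and RPE lists did not overlap between the groups, and those of the other lists did. The summed level of 6 neuron miRNAs ran from 14840.2 to 21342 CPM in control and from 8225 to 13193 CPM in CNV, with all 6 members lower and a median log2 fold change of -0.78. The 3 photoreceptor miRNAs summed to between 49348 and 75779 CPM in control and between 24736 and 49473 CPM in CNV, which overlap, with a median of -0.92. The 4 RPE miRNAs were all detected, with a median of -0.44. They summed to between 6841 and 7042 CPM in control and between 4573 and 6546 CPM in CNV. The 2 endothelial miRNAs overlapped (35246 to 45069 and 35449 to 42881 CPM, median -0.18), as did the 4 fibroblast and mural cell miRNAs (57333 to 72884 and 69086 to 90303 CPM, median 0.44). The 3 muscle miRNAs also overlapped (34304 to 91114 and 57437 to 90589 CPM, median 0.12). The 4 surface epithelium miRNAs had a median of 0.27 with overlapping sums. None of these lists had a member past edgeR's test. The part of these shifts in the levels of the leukocyte miRNAs was not tested, and the ratios between members given above are the values that do not use the library total.

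**Figure D5:**
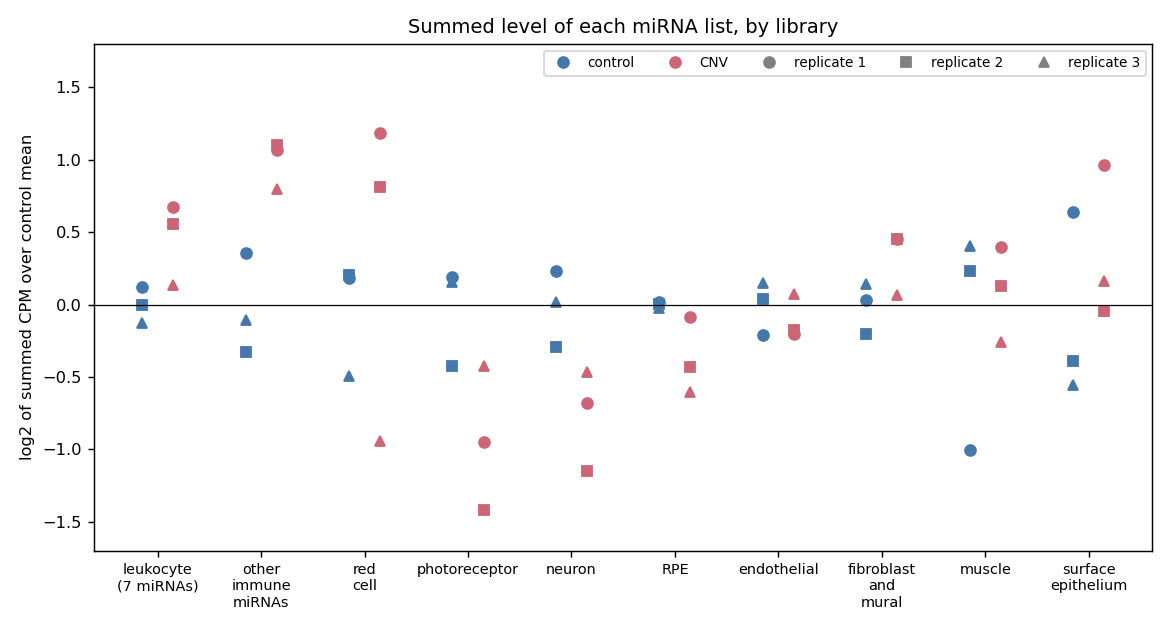
Summed CPM of each miRNA list in every library as log2 over the control mean, with colour for the group and shape for the replicate. The 7 leukocyte miRNAs lie between 904 and 1311 CPM in CNV and between 754 and 894 CPM in control, and the red cell list spreads most within the CNV group.

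The members also differed in which other miRNA had the most similar profile over the 6 libraries, measured as the root mean square distance between log2 levels centred on each miRNA's mean, among 534 tested miRNAs outside the list. The profile of miR-223-3p was nearest to that of the scar-associated miR-214-3p (distance 0.07 log2 units) and that of miR-142a-5p to miR-222-5p (0.09). The nearest to miR-223-5p was let-7i-5p (0.11), to miR-342-3p miR-98-5p (0.05), to miR-511-3p miR-331-5p (0.06) and to miR-142a-3p miR-466c-5p (0.19), a rare miRNA at 1.28 CPM in control. The nearest to miR-150-5p was the neural miR-338-3p (0.08), at 64.3, 66.4 and 57.0 CPM in control and 54.3, 49.0 and 40.2 CPM in CNV. The second nearest to miR-150-5p was miR-211-5p (0.11), a miRNA of the RPE list. For the other members it was miR-214-3p for miR-142a-3p (0.2), miR-34a-5p for miR-142a-5p (0.18) and miR-212-5p for miR-223-3p (0.12). It was miR-455-3p for miR-223-5p (0.15), miR-382-3p for miR-342-3p (0.07) and miR-130b-3p for miR-511-3p (0.08). The median distance to the 534 ran from 0.34 for miR-511-3p to 0.65 for miR-142a-5p. Among the members themselves the closest pair was the arms of miR-223 (0.14), followed by miR-142a-3p with miR-223-3p (0.19), and the most distant was miR-142a-5p with miR-150-5p (0.79). The profile of miR-342-3p was 0.25 from that of miR-223-3p and 0.43 from that of miR-150-5p.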

How the data were processed

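Small RNA libraries of inserts of 14 to 40 nt were made from Trizol RNA and sequenced on an Illumina NextSeq, per the labels' protocols. The authors' deposited tables give a read count per miRNA and tsRNA (tRNA-derived small RNA) in each of 6 libraries. Per the submitters' processing notes Bowtie was used. Its settings and the genome build were not given in the sources used here. CPM values of the deposited tables were left out, because they are scaled to different totals for the 2 classes.

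Counts were analysed in R 4.3.3. filterByExpr of edgeR 4.0.16 (minimum count 10, minimum total 15) kept 997 small RNAs (541 miRNAs, 456 tsRNAs), including all 7 members. Both classes were scaled together by TMM and tested with edgeR's quasi-likelihood test, Benjamini-Hochberg adjusted over all 997 at 0.05, with no covariate. SE is the log2 fold change over the square root of the F statistic, and intervals are 95%. The test was run on simulated counts whose spread was estimated from these same libraries. That run checks the code, and its recovery of folds of the members' size is not given here. Ratios used log2 counts with 0.5 added for testing. Profiles used a prior count of 2. The alternatives tried were other scalings, filters, DESeq2 1.42.0, limma-voom (limma 3.58.1), a replicate block and leaving out each library. Counting error per library is 1 over the square root of the count. Positions are from GENCODE M21 (GRCm38) and sequences from RefSeq (GRCm38.p6).

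The members and lists were chosen with earlier results of these data known. Named miRNAs were all members, their other arms, the immune list, the nearest profile of each member and any miRNA sharing a seed. Of the lists of other cell types, medians and sums are given with miR-451a as the example. The miRNAs miR-142b and miR-3964 were chosen after their position or sequence was seen. The second nearest profiles were not among the names planned.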

Additional observations from a re-analysis of the deposited data

How the results depend on the processing

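No member changed direction under any of the 14 alternatives (13 for miR-223-5p and miR-511-3p, which had too few reads for the filter at a mean of 20 CPM). In place of 3 small RNAs and 0 members, 88 and 2 were called without a low-count filter, 38 and 3 by DESeq2, 36 and 2 with a replicate block, 6 and 0 among miRNAs only, and 0 and 0 at a mean of at least 20 CPM. Leaving out 1 library gave 0 to 24 small RNAs and 0 to 1 members, with the 24 and the 1 (miR-142a-5p) without CNV replicate 3, and 0 small RNAs without replicate 2 or 3 of control or replicate 1 or 2 of CNV. The causes were not tested. The members called in any alternative were miR-142a-5p in 4, miR-142a-3p in 3 and miR-223-3p in 1. Over the alternatives the adjusted p ran from 0.00946 to 0.507 for miR-142a-3p, from 0.000365 to 0.507 for miR-142a-5p, from 0.0116 to 0.507 for miR-223-3p and from 0.0864 to 0.572 for miR-150-5p. The call of miR-21a-5p ended at a mean of at least 20 CPM (adjusted p 0.0545) and without control replicate 2 (0.236) or 3 (0.171) or CNV replicate 1 (0.0866) or 2 (0.129).

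The labels give same-numbered libraries no link beyond the number. Their deviations from the group means correlated at 0.287, 0.0302 and 0.172, and those of other pairs at -0.257 to 0.152. Control replicates 1 and 3 correlated best with the CNV library of their own number, and control replicate 2 with CNV replicate 3 (0.152). Whether same-numbered libraries share a batch was not tested. With the replicate block miR-142a-3p (adjusted p 0.0446) and miR-142a-5p (0.0237) passed. The miR-223 arm ratio, -0.06 on the log2 scale, ran from -0.15 to 0.04 with 1 library left out. The log2 fold change of miR-132-3p, 0.04, was -0.10 when scaled by total counts alone, -0.05 without a filter, and -0.13 to 0.07 with 1 library left out. That of miR-144-3p, 0.28, was -0.06 by limma-voom and -0.15 to 0.67 with 1 library left out. With 1 library left out, that of miR-144-5p ran from -0.13 to 0.79 and that of miR-486a-5p and miR-486b-5p from -0.01 to 0.49. Depth limits miR-223-5p and the rarer arms most, with a counting error of 15.2% for miR-223-5p in its shallowest library.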
